A study of Mus musculus with 9 samples.

Results

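Genes of the mitochondrial pathway of apoptosis were followed across mammary tumors that lacked HSP72 and tumors that had it. The group holds 9 genes named for the pathway, out of 55401 mouse gene rows in the counts table. The genes are the survival genes Bcl2, Bcl2l1 and Mcl1, the effector Bak1, the BH3-only genes Bid, Bad and Bcl2l11, the caspase activator Apaf1 and the caspase inhibitor Xiap. All 9 passed the filter on low counts. The group itself holds no caspase gene; the caspases are among the further pathway genes described after the members. RNA came from 5 tumors with the genotype Hspa1a/Hspa1b-/- (KO), from mice 120 to 125 days old, and from 4 tumors with the genotype Hspa1a/Hspa1b+/+ (WT), from mice 122 to 132 days old. All mice were females of the strain C57BL/6 MUC1.Tg MMTV-PyMT, so both groups carried a MUC1 transgene and the polyoma middle T oncogene driven by the mouse mammary tumor virus promoter. The labels do not say whether each sample was a separate animal. Within a group the ages differ, except that KO samples 3 and 5 share 120 days and WT samples 3 and 4 share 124 days. Samples of different ages came from different mice, if all tumors of a mouse were taken on the same day. For the pairs of equal age this cannot be told. The p-values rest on the variation among the libraries, part of which may be technical.

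In this pathway BCL2-type survival proteins sit on the outer mitochondrial membrane and hold the pore-forming proteins BAX and BAK in check. BH3-only proteins report damage or lost growth signals and free the pore formers, cytochrome c leaves the mitochondrion, and APAF1 assembles with it into the apoptosome that activates caspase 9. XIAP blocks the active caspases. HSP70 chaperones, HSP72 among them, have been reported to bind APAF1 and hinder the assembly of the apoptosome, a step that RNA levels do not show. In the mammary gland BCL-xL and MCL1 are known for keeping secretory epithelium alive.

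Each library held 4410399 to 6221181 fragments counted on genes, and 323 to 5268 fragments were counted per gene and group for the 9 genes. Hspa1b, 1 of the pair of deleted genes, stood at 0 to 0.657 CPM (counts scaled to a common library total) in KO libraries and at 28.7 to 81.1 CPM in WT libraries. Hspa1a stood at 0.163 to 1.64 CPM in KO and 3.99 to 9.77 CPM in WT, and both genes separated the libraries as labelled. All 8 luminal epithelial markers passed the filter, with a summed level of 3189 to 3842 CPM in KO and 3479 to 6445 CPM in WT. In bulk RNA from dissociated tumors, fewer cells of a type and less RNA per cell cannot be told apart.

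None of the 9 genes was called different between KO and WT tumors by edgeR's quasi-likelihood test after Benjamini-Hochberg adjustment at 0.05. Over all 14665 genes tested the same test called 13, or 0.0886%. At an unadjusted p under 0.05 there was 1 of the 9, Apaf1, against 7.95% of all genes tested. DESeq2 and limma-voom called none of the 9, where they called 0.322% and 0.13% of the genes they adjusted. The 95% intervals of the 9 log2 fold changes (KO over WT) lay between -0.72 and 0.67. The median log2 fold change of the 9 was -0.04, and that of all genes tested was -7.8e-05.

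**Figure D1:**
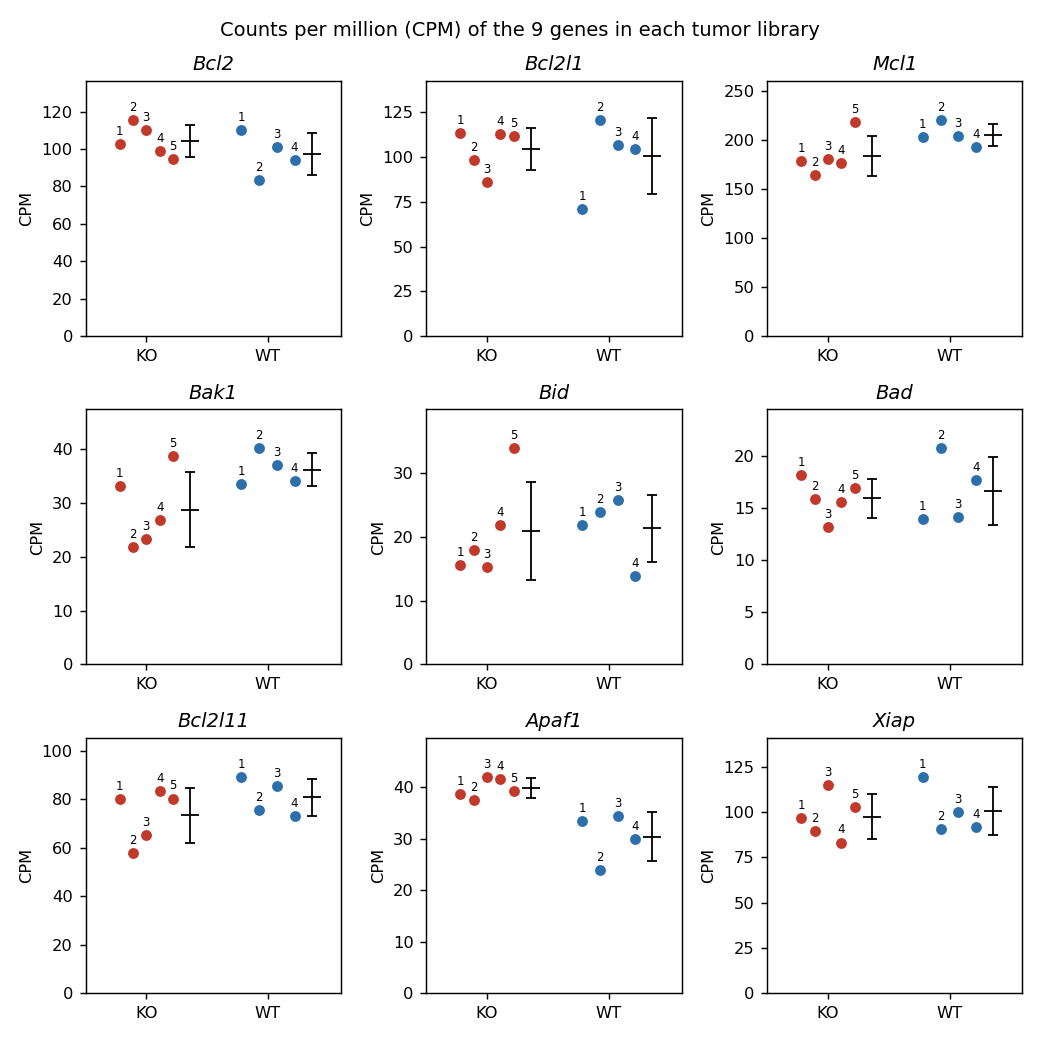
Level of each gene in CPM (vertical axes, from 0) in the 5 KO libraries (red, left) and the 4 WT libraries (blue, right), with the library number beside each point and the mean and SD as a bar. The KO and WT points overlap for 8 genes; for Apaf1 every KO library, from 37.5 CPM up, lies above every WT library, at most 34.4 CPM.

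Apaf1 (ENSMUSG00000019979.12, chromosome 10, 90989311 to 91082770, GRCm38, minus strand) encodes the scaffold of the apoptosome. It stood at 38.6, 37.5, 42.0, 41.5 and 39.3 CPM in KO 1 to KO 5, and at 33.5, 23.8, 34.4 and 29.99 CPM in WT 1 to WT 4. Every KO library was above every WT library, with a gap of 3.08 CPM between the groups; such a separation upward was seen for 1.44% of all genes tested, and in either direction for 2.7%. The mean was 39.8 ± 1.94 CPM in KO (SD, n = 5) and 30.4 ± 4.79 CPM in WT (SD, n = 4). The log2 fold change was 0.39 ± 0.13 (SE; 95% interval 0.10 to 0.67), with an unadjusted p of 0.0118 and an edgeR adjusted p of 0.616. Its p ranked 281 among the genes tested. WT 2, the library with the lowest Apaf1, came from the oldest mouse, at 132 days. With age as a covariate the log2 fold change was 0.26 ± 0.13 (SE; edgeR unadjusted p = 0.0729, adjusted p = 0.428), and without WT 2 it was 0.28 ± 0.12 (SE).

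The sequence upstream of Apaf1 is shown because Apaf1 was the member whose groups separated, beside that of the deleted gene Hspa1b, whose promoter is known to answer heat shock. Each is the 250 bases before the annotated start, 5′ to 3′, from RefSeq on GRCm38.p6, with motif matches in capitals. The Apaf1 window is chr10:91082744-91082993 (minus strand) and the Hspa1b window is chr17:34959239-34959488 (minus strand).
Apaf1: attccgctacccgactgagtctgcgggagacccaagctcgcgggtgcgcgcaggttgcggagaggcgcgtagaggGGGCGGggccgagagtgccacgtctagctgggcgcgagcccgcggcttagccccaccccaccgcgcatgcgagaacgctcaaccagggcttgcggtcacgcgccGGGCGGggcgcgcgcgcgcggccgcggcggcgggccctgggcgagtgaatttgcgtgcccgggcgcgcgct
Hspa1b: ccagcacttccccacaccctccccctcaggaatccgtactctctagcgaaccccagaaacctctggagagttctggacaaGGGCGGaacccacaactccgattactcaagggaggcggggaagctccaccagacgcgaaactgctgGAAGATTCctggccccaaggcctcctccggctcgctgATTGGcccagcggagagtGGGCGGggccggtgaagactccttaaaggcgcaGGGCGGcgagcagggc
Motifs were searched on both strands: the GC box GGGCGG, bound by SP1-type factors, the CCAAT box CCAAT, the TATA box TATAAA, a pair of inverted heat shock units (GAANNTTC or TTCNNGAA), the E2F sites TTTCCCGC and TTTGGCGC, and the p53 half-site. In the Apaf1 window the capitals are 2 GC boxes, and no other motif matched. In the Hspa1b window they are 3 GC boxes, a CCAAT box read on the other strand and, at positions -104 to -97 from the start, the heat shock pair GAAGATTC. Of all 32851 RefSeq windows of this length, 32.7% held a GC box, 33.9% a CCAAT box, 12.4% the TATA box, 12.8% a heat shock pair, 1.3% an E2F site and 7.13% a p53 half-site. The 9 members had 15 such windows, counting alternative starts, of which 9 held a GC box, 3 a CCAAT box, 1 the TATA box and 1 (at Bad) a heat shock pair, while no E2F site or p53 half-site matched. These are letter matches and do not show binding. The share of G and C was 75.6% in the Apaf1 window, the highest among the 15, which went down to 39.2% at Xiap.

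By the pattern over the 9 libraries, the genes most like Apaf1 were Phgdh, Mettl6 and Zfp759, out of 12483 protein-coding genes with a mean log2 CPM of at least 1. The likeness was the Pearson correlation of log2 CPM, 0.94, 0.93 and 0.93, with Spearman coefficients of 0.70, 0.85 and 0.88, given as descriptions since these genes were picked as the highest. The median gene had a coefficient of -0.067. Without WT 2 and WT 4, the libraries farthest from the median of Apaf1, the 3 Pearson values were 0.62, 0.82 and 0.83. Within the 5 KO libraries they were 0.38, 0.19 and 0.74, and within the 4 WT libraries 0.94, 0.99 and 0.90. The points share their libraries, scaling and genotype groups. Phgdh, which encodes the first enzyme of serine synthesis, stood at 13.3 to 15.6 CPM in KO and 6.69 to 14.3 CPM in WT. Mettl6, on chromosome 14, stood at 38.6 to 44.5 CPM in KO and 29.3 to 35.7 CPM in WT. For Zfp759 the ranges were 8.08 to 13.0 CPM in KO and 4.81 to 8.14 CPM in WT.

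Among survival genes, Bcl2 (ENSMUSG00000057329.7, chromosome 1, 106538178 to 106714274) is the founding member of the family. It stood at 103, 116, 110, 98.7 and 94.7 CPM in KO 1 to KO 5 and at 110, 83.4, 101 and 94.2 CPM in WT 1 to WT 4. The KO range contained 2 of the WT values, and the log2 fold change was 0.10 ± 0.12 (SE; 95% interval -0.15 to 0.36; edgeR adjusted p = 0.84). The antisense gene D630008O14Rik shares 558 of the 9157 exon bases of Bcl2, and had 7 counts over all libraries against 4903 for Bcl2.

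Bcl2l1 (ENSMUSG00000007659.18, chromosome 2, 152780668 to 152831728) encodes BCL-xL and, by another splice choice, a short form that promotes death; counts per gene do not separate them. It stood at 86.2 to 113 CPM in KO and at 70.9 to 121 CPM in WT, the lowest library being WT 1, with the other WT libraries at 104 CPM or more. The log2 fold change was 0.05 ± 0.16 (SE; 95% interval -0.30 to 0.40; edgeR adjusted p = 0.951), and -0.08 ± 0.13 (SE) without WT 1. The sign of this small difference therefore rested on 1 library.

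Mcl1 (ENSMUSG00000038612.16, chromosome 3, 95658788 to 95663176) encodes a short-lived survival protein that binds BAK and BIM. It stood at 179, 164, 180, 177 and 218 CPM in KO 1 to KO 5, against 204, 221, 204 and 193 CPM in WT 1 to WT 4. Of the KO libraries 4 lay below all WT libraries and KO 5 lay among them. The log2 fold change was -0.16 ± 0.11 (SE; 95% interval -0.41 to 0.09; edgeR adjusted p = 0.721), and -0.23 without KO 5, where the adjusted p was 0.57.

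Bak1 (ENSMUSG00000057789.14, chromosome 17, 27019810 to 27029009) encodes BAK, which forms the pore in the mitochondrial membrane. It stood at 33.1, 21.8, 23.3, 26.9 and 38.6 CPM in KO 1 to KO 5 and at 33.5, 40.1, 37.1 and 34.0 CPM in WT 1 to WT 4. All KO libraries but KO 5 were below the lowest WT library, and the KO libraries varied more, with a coefficient of variation of 24.4% against 8.48% in WT. The log2 fold change was -0.33 ± 0.17 (SE; 95% interval -0.72 to 0.05; edgeR adjusted p = 0.649), and -0.46 ± 0.16 (SE) without KO 5, with an unadjusted p of 0.0147 and an adjusted p of 0.521. Bak1 lies 7.93 megabases from the deleted Hspa1b on the same chromosome. The gene Ggnbp1, annotated under 2 identifiers on the opposite strand, shares 437 and 177 of the 2407 exon bases of Bak1. The larger entry stood at 6.95 ± 1.46 CPM in KO and 7.07 ± 1.30 CPM in WT (SD), a log2 fold change of -0.03. Whether strand was used in counting is not stated, so reads in such shared bases cannot be assigned.

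The 3 BH3-only genes overlapped between genotypes throughout. Bid (ENSMUSG00000004446.12, chromosome 6, 120891930 to 120916853), whose product is cut by caspase 8 and carries the death receptor signal to mitochondria, was the most variable of the 9. It stood at 15.6, 17.9, 15.3, 21.8 and 33.9 CPM in KO 1 to KO 5 and at 21.9, 23.8, 25.8 and 13.9 CPM in WT 1 to WT 4. KO 5 was the highest of all libraries and WT 4 the lowest. The log2 fold change was -0.03 ± 0.26 (SE; 95% interval -0.61 to 0.54; edgeR adjusted p = 0.983), and -0.28 without KO 5. The related gene Bcl2l13, on the opposite strand, shares 628 of the 3550 exon bases of Bid and had a log2 fold change of -0.18 ± 0.15 (SE). Bcl2l13 stood above Bid, at 52.1 ± 8.64 CPM in KO and 59.0 ± 8.34 CPM in WT (SD). Its part in the count of Bid was not tested.

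Bad (ENSMUSG00000024959.14, chromosome 19, 6941861 to 6951899) encodes a sensitizer that AKT phosphorylation holds inactive, AKT being a kinase downstream of polyoma middle T. It stood at 13.1 to 18.1 CPM in KO and 14.0 to 20.7 CPM in WT, from 60 to 99 counts a library, with a log2 fold change of -0.06 ± 0.17 (SE; 95% interval -0.43 to 0.31; edgeR adjusted p = 0.942). Its neighbour Gpr137 on the opposite strand shares 524 of the 2558 exon bases of Bad, and stood at 15.1 ± 3.94 CPM in KO and 17.5 ± 5.52 CPM in WT (SD). Bcl2l11 (ENSMUSG00000027381.16, chromosome 2, 128126038 to 128162547) encodes BIM, which is induced when growth signals or attachment are lost. It stood at 57.7 to 83.6 CPM in KO and 73.2 to 89.3 CPM in WT, with a log2 fold change of -0.14 ± 0.14 (SE; 95% interval -0.44 to 0.16; edgeR adjusted p = 0.809).

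Xiap (ENSMUSG00000025860.15, chromosome X, 42059679 to 42109656), the inhibitor of the caspases that execute cell death, stood at 96.7, 89.6, 115, 83.2 and 103 CPM in KO 1 to KO 5. In WT 1 to WT 4 it stood at 120, 90.5, 99.9 and 92.0 CPM. The groups overlapped, and the log2 fold change was -0.04 ± 0.13 (SE; 95% interval -0.33 to 0.25; edgeR adjusted p = 0.952).

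KO 5 was the highest KO library for 3 of the 9, Mcl1, Bak1 and Bid, and KO 1 and KO 3 were each the highest for 2. The lowest KO library was KO 2 or KO 3 for 7 of the 9. The summed T and NK cell markers (2 of 7 genes tested) stood at 20.7 CPM in KO 5, against 3.45 to 7.66 CPM in the other KO libraries and 7.31 to 13.0 CPM in WT. The summed neutrophil markers (2 of 5 genes tested, Ly6g being at 0) stood at 26.0 CPM in KO 5, against 3.43 to 7.49 CPM in the other KO libraries and 4.82 to 11.9 CPM in WT. Macrophage markers (7 of 7 tested) summed to 361 CPM in KO 5, against 194 to 266 CPM in the other KO libraries and 300 to 524 CPM in WT. Among KO libraries KO 5 was also the highest for summed B cell (9.23 CPM) and erythroid (109 CPM) markers. It was the lowest KO library for fibroblast (41.2 CPM), endothelial (17.1 CPM) and adipocyte (1.54 CPM) markers. The part of these cells in the levels of Mcl1, Bak1 and Bid was not tested.

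Levels can be compared between genes only per length, here as CPM per kilobase of the union of annotated exons. Mcl1 was the highest of the 9 at 53.7 ± 5.96 in KO and 60.04 ± 3.31 in WT (SD), with 2.36 times the level of the next gene, Bcl2l1, in KO and 2.73 times in WT. Bcl2l1 followed at 22.8 ± 2.62 in KO and 21.97 ± 4.61 in WT on the same scale, its range overlapping that of Bak1 in WT but not in KO. Bak1, Bcl2, Xiap and Bcl2l11 formed a middle tier, with means between 9.15 and 11.9 in KO and between 10.1 and 15.03 in WT. Within that tier neighbouring genes had overlapping ranges, except Bak1 above Xiap in WT. Bad and Bid stood near 6 (6.22 and 5.88 in KO, 6.49 and 6.01 in WT) and could not be ordered, Bad being the higher in 3 of 5 KO and 2 of 4 WT libraries. Apaf1 was the lowest, at 4.41 ± 0.214 in KO and 3.37 ± 0.531 in WT; its range overlapped that of Bid in KO and lay below it in WT. With the longest transcript as the length Mcl1 and Bcl2l1 remained the highest pair and Apaf1 the lowest. In the middle tier Bcl2l11 then had the highest mean, and Bak1 fell from rank 3 to rank 6 over all libraries. The ranges of the genes in that tier then overlapped in both groups, including Bak1 and Xiap in WT.

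**Figure D2:**
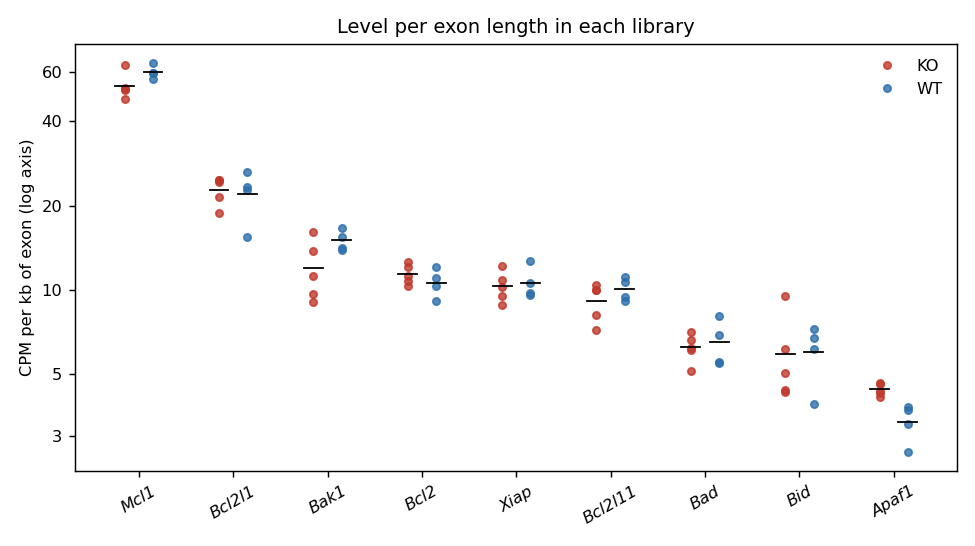
CPM per kilobase of exon (log axis) for the 9 genes, ordered by their mean over all libraries, with KO libraries in red on the left and WT libraries in blue on the right of each pair and black lines at the group means. Mcl1, with means of 53.7 in KO and 60.04 in WT, stands above every other gene in all libraries, and Apaf1 is lowest on average.

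The balance of survival to death genes was read as the log2 ratio of CPM within a library, which no scaling of the library changes. Of the 20 ratios of a survival gene or Xiap to Bak1, a BH3-only gene or Apaf1, 18 overlapped between genotypes. The remaining 2 were lower in every KO library, and both had Apaf1 below the line. The ratios of Bcl2 and Bcl2l1 to Apaf1 overlapped between genotypes. How often ratios of other genes separate the groups was not computed. The log2 ratio of Mcl1 to Apaf1 was 2.20 ± 0.16 in KO and 2.77 ± 0.30 in WT (SD), and that of Xiap to Apaf1 was 1.29 ± 0.17 in KO and 1.73 ± 0.18 in WT. For Xiap to Apaf1 the KO libraries ran from 1.00 to 1.45 and those of WT from 1.54 to 1.93. No p is given for these ratios, since the genes were chosen with earlier results known, and they repeat the separation of Apaf1 itself.

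Ratios to Bak1 went the other way on average, without separating the groups. The log2 ratio of Bcl2l1 to Bak1 was 1.89 ± 0.25 in KO and 1.45 ± 0.25 in WT (SD), with KO 5 at 1.53 inside the WT range of 1.08 to 1.62. That of Mcl1 to Bak1 was 2.70 ± 0.23 in KO and 2.51 ± 0.07 in WT. Bcl2 to Bak1 had 1.89 ± 0.45 in KO and 1.42 ± 0.27 in WT, and Xiap to Bak1 1.79 ± 0.37 and 1.47 ± 0.27. Apart from Bak1, the log2 ratio of Bcl2 to Bcl2l11 was 0.52 ± 0.34 in KO and 0.26 ± 0.10 in WT. For Bcl2 to Bcl2l11, KO 2 at 1.00 and KO 3 at 0.76 lay above all other libraries, which ran from 0.14 to 0.36. Without KO 2 the mean difference in that ratio was 0.14, where it was 0.26 with all libraries.

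**Figure D3:**
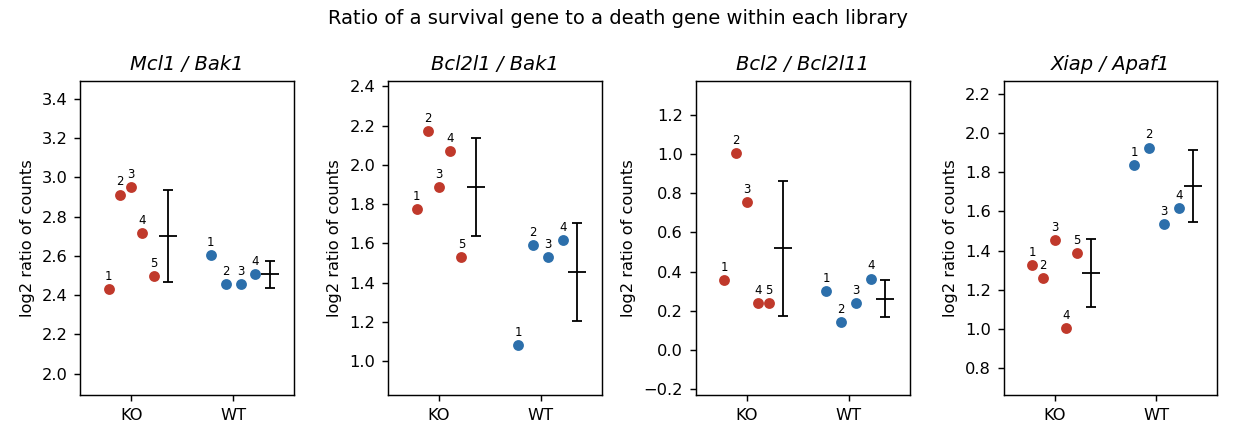
Log2 ratio of the counts of a survival gene, or of Xiap, to those of a death gene in each library (vertical axes, equal spans), KO in red on the left and WT in blue on the right, with numbers for the libraries and the mean and SD as a bar. For Xiap to Apaf1 all 5 KO libraries, at most 1.45, lie below the 4 WT libraries, at least 1.54; the other 3 pairs overlap.

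The rest of the pathway was read from 8 lists with 54 genes in all, the 9 members included, of which 46 were tested. By edgeR none of the 46 was called, 2 had an unadjusted p under 0.05 and were higher in KO, and 5 had one and were lower in KO, where 3.36% and 4.59% of all genes tested did so. Their median log2 fold change was -0.04, with 27 of 46 negative, against 7335 of 14665 over all genes. The 8 untested genes had 2 to 44 counts over all 9 libraries. They were the blood cell survival genes Bcl2a1a, Bcl2a1b and Bcl2a1d, the effector Bok, the BH3-only gene Hrk, Casp14, Naip1 and the death ligand Fasl.

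**Figure D4:**
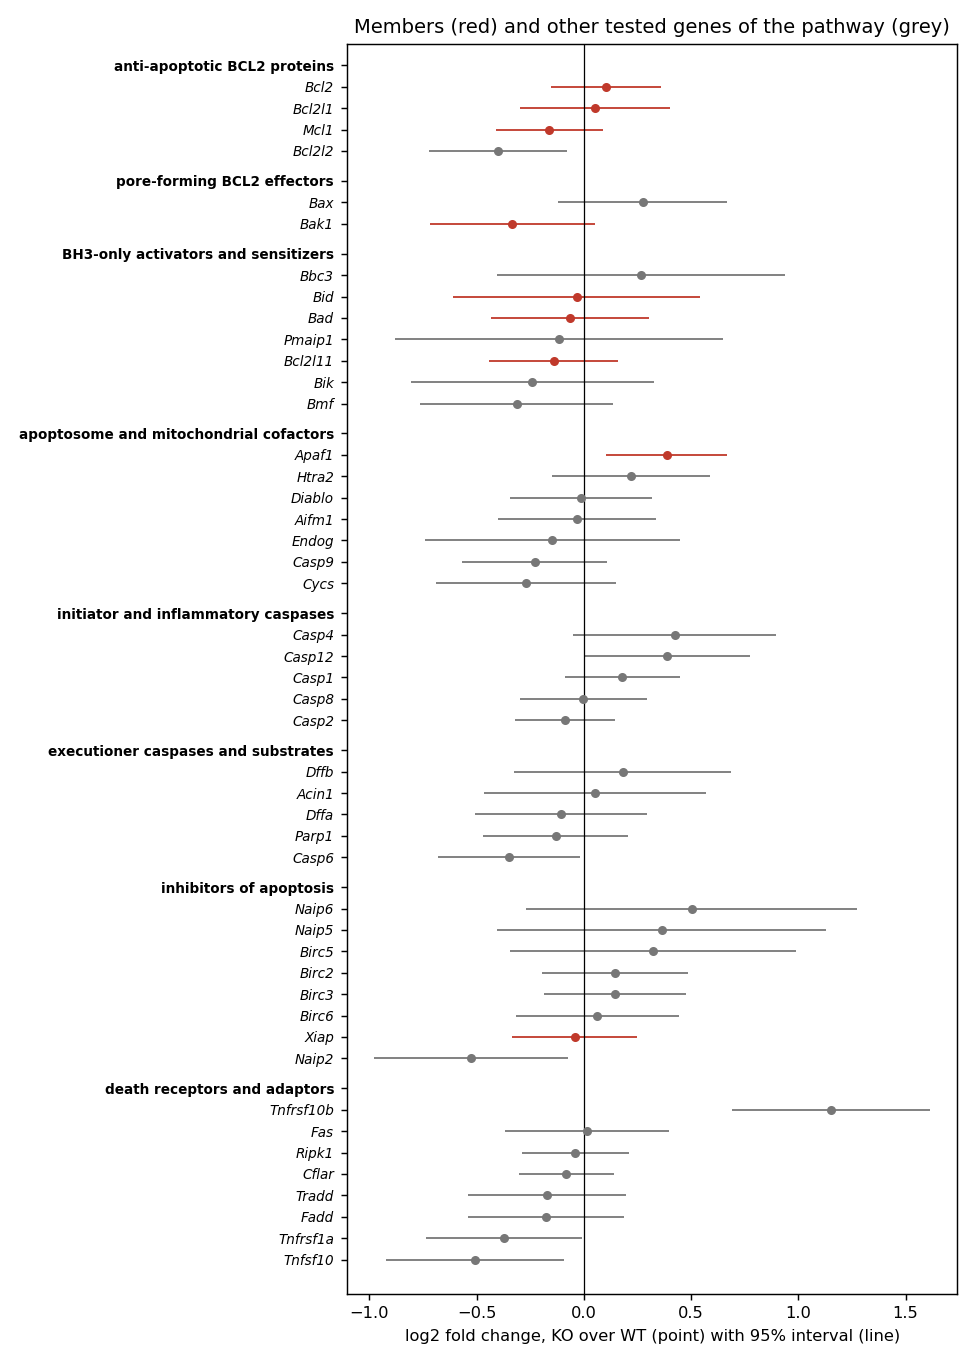
Log2 fold change of KO over WT (horizontal axis; points) with 95% intervals (lines) for the 46 tested pathway genes in 8 lists, the 9 members in red and the others in grey. Most intervals cross 0; Tnfrsf10b, at 1.15, lies farthest from it.

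Among death receptors and adaptors Tnfrsf10b, the death receptor for TRAIL in the mouse, stood apart. It stood at 39.0, 43.7, 49.1, 35.4 and 45.1 CPM in KO 1 to KO 5 and at 29.3, 17.6, 16.0 and 13.9 CPM in WT 1 to WT 4. Every KO library was above every WT library, as for 1.44% of all genes tested. The log2 fold change was 1.15 ± 0.21 (SE; 95% interval 0.69 to 1.61), which edgeR did not call (adjusted p = 0.145) and DESeq2 and limma-voom did (adjusted p = 0.000482 and 0.00542). Without WT 1, the highest WT library, the log2 fold change was 1.42 and the edgeR adjusted p was 0.00334. Tnfrsf10b lies on chromosome 14, 69767472 to 69784411, 0.673 megabases from Phyhip, a gene that edgeR called higher in KO. Of the 13 genes called, 7 lie on that chromosome, and the share of all tested genes on it is not given here. Whether this position bears on the level of Tnfrsf10b was not tested. The ligand gene Tnfsf10, which encodes TRAIL, stood at 28.0 to 41.9 CPM in KO and 29.5 to 55.0 CPM in WT, with -0.51 ± 0.19 (SE) as its log2 fold change and an edgeR adjusted p of 0.616. The tumor necrosis factor receptor gene Tnfrsf1a had a log2 fold change of -0.37 ± 0.17 (SE) with WT 1 the highest library at 135 CPM, and -0.18 without WT 1. Of the 8 tested genes in this list 6 were negative, including the adaptor Fadd (-0.18 ± 0.17) and the caspase 8 inhibitor Cflar (-0.08 ± 0.10).

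The remaining BCL2 genes were Bcl2l2, Bax and further BH3-only genes. Bcl2l2, which encodes the survival protein BCL-w, stood at 31.5 to 47.5 CPM in KO and 45.1 to 62.9 CPM in WT, with a log2 fold change of -0.40 ± 0.15 (SE; edgeR unadjusted p = 0.0192, adjusted p = 0.616). It lies on chromosome 14, 54883377 to 54888234, 0.00583 megabases from Ppp1r3e, which edgeR called lower in KO. The pathway gene Acin1, 0.186 megabases from Ppp1r3e, had a log2 fold change of 0.05 ± 0.24 (SE). Whether nearness to Ppp1r3e bears on either gene was not tested. The gene Gm20521, on the same strand, shares 594 of the 4462 exon bases of Bcl2l2 and had 0 counts. Bax, the partner of Bak1 in pore formation, stood at 16.8 ± 3.07 CPM in KO and 13.9 ± 2.21 CPM in WT (SD); its log2 fold change was 0.27 ± 0.18 (SE), with an edgeR adjusted p of 0.702. Of 7 BH3-only genes tested, members included, 6 were negative with a median of -0.12, and none had an unadjusted p under 0.05. The p53 target Bbc3, which encodes PUMA, had a log2 fold change of 0.27 ± 0.31 (SE), Bmf -0.31 ± 0.20 and Bik -0.24 ± 0.26.

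No caspase gene of the lists was called by edgeR. The initiator Casp9, which the apoptosome activates, stood at 21.6 ± 1.597 CPM in KO and 25.3 ± 5.26 CPM in WT (SD); its log2 fold change was -0.23 ± 0.15 (SE), with an edgeR adjusted p of 0.71, and cytochrome c (Cycs) had -0.27 ± 0.19. Htra2, which encodes a mitochondrial protease that binds XIAP, had 0.22 ± 0.17 (SE). The caspase gene Casp6 stood at 22.1, 14.5, 20.9, 20.2 and 21.0 CPM in KO 1 to KO 5 and at 24.7, 23.0, 24.1 and 28.9 CPM in WT 1 to WT 4. Every KO library was below every WT library for Casp6, as for 1.26% of all genes tested, with a log2 fold change of -0.35 ± 0.15 (SE; edgeR unadjusted p = 0.0401, adjusted p = 0.616), and -0.26 without KO 2. Among genes whose products caspases cut or release, Parp1, which encodes a DNA repair enzyme, had -0.13 ± 0.15 (SE) and Dffb, which encodes a nuclease that cuts DNA in dying cells, had 0.18 ± 0.23. The neighbouring genes Casp1, Casp4 and Casp12 on chromosome 9, of the inflammatory group, had log2 fold changes of 0.18 ± 0.12, 0.42 ± 0.22 and 0.39 ± 0.18, all with overlapping groups, and the initiators Casp2 and Casp8 had -0.09 ± 0.11 and -0.0025 ± 0.13.

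Among inhibitors of apoptosis 6 of 8 were positive, the median of the 8 log2 fold changes being 0.14, and none was called by edgeR. Birc2 and Birc3, which encode the ubiquitin ligases cIAP1 and cIAP2, had 0.15 ± 0.15 and 0.14 ± 0.15 (SE). Birc5, which encodes the mitotic protein survivin, had 0.32 ± 0.30. Naip2 stood at 12.5 ± 2.63 CPM in KO and 17.9 ± 3.77 CPM in WT (SD); its log2 fold change was -0.53 ± 0.21 (SE), with an edgeR adjusted p of 0.616, while Naip6 had 0.50 ± 0.35. The Naip genes are near-identical copies, so each one's own count is uncertain.

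Markers of other cell types in the tumors were read beside these genes. Summed fibroblast markers (7 of 7 tested) stood at 41.2 to 61.8 CPM in KO and 47.2 to 147 CPM in WT, and endothelial markers (6 of 6) at 17.1 to 52.0 CPM in KO and 31.4 to 119 CPM in WT. Fold changes were negative for 6 of 7 fibroblast, 6 of 6 endothelial, 7 of 7 macrophage and 8 of 8 luminal epithelial markers. At an unadjusted p under 0.05 there were 3, 2, 1 and 3 of them, in the same order, and edgeR called none after adjustment. Over all genes tested, 50.0% had a negative fold change and 7.95% had an unadjusted edgeR p under 0.05. No marker of these 4 lists was at 0 in all libraries. In the remaining marker lists, fold changes were negative for 3 of 5 basal and myoepithelial and 5 of 5 erythroid markers. Among markers tested, 2 of 2 for T and NK cells and 1 of 1 for B cells were negative. For neutrophils it was 0 of 2, and for adipocytes 0 of 1. The part of the cell makeup in the levels of Apaf1, Bak1, Tnfrsf10b and Casp6 was not tested.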

How the data were processed

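The deposited table holds unnormalized counts per gene for 9 libraries, which the authors made with Trimmomatic 0.36, FastQC 0.11.5 and STAR 2.5.4a on GRCm38, per the submitters' processing notes; settings and strand use are not stated in the sources used here. Per the labels' protocols, tumors were dissociated with collagenase and trypsin, and ribosomal RNA was depleted before stranded, paired-end sequencing. Rows that name no gene (unmapped 11.0% to 27.1%, multimapped 5.50% to 9.53%, no feature 34.0% to 50.4% and ambiguous 0.971% to 1.23% of a library) stayed out of library sizes. Of 55401 gene rows, 55141 matched a symbol of GENCODE M21.

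KO was tested against WT with edgeR 4.0.16 in R 4.3.3 (glmQLFit, glmQLFTest, TMM, filterByExpr, genotype as the single term), two-sided, with adjustment over 14665 genes. CPM are counts over the tested genes' totals times the TMM factors. The SE is the log2 fold change over the square root of F, and intervals are 95% with the fit's degrees of freedom. Alternatives were DESeq2 1.42.0, limma-voom (limma 3.58.1) with sample weights, other scalings and filters, age, the library number as a block, an adjusted p under 0.1, and leaving out libraries. The fits were tested on simulated data. Library totals limit precision, and intervals cover the spread between samples.

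The members and all gene lists were chosen with earlier results of these data known. Some genes of the pathway are not reported here and stand in none of the lists. Named genes are the 9 members and up to 3 further genes per list with the smallest unadjusted p. The rule also names the 3 genes most like the member of smallest p, and Hspa1a and Hspa1b. Cflar, Fadd, Acin1, Casp2, Casp8, Birc2 and Birc3 were named after their values were seen where they fall outside that rule.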

Additional observations from a re-analysis of the deposited data

Results flagged for a closer look

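The caspase gene Casp6 had KO 2 far below the other KO libraries, at 14.5 CPM against 20.2 to 22.1 CPM. KO 2 at Casp6 was the 1 value beyond the 95% limit of Dixon's test in 58 groups of libraries examined, for the members and the other named pathway genes; chance gives about 1 in 20 groups. None of the 9 members had such a value.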

How the results depend on the processing

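The count of members called was 0 in every alternative run. DESeq2, limma-voom, no count filter, without WT 1, and without WT 1 and WT 4 each called 1 other pathway gene, Tnfrsf10b. The number of genes called was 13, and 63 with DESeq2, 29 with no count filter, 6 with genes under a mean count of 50 removed, and 6 to 13 with 1 library left out. Deviations of same-numbered KO and WT libraries correlated at -0.025, 0.386, 0.111 and 0.380. Every WT library except WT 1 correlated best with the KO library of its own number. WT 1 correlated best with KO 3, at 0.576. Among KO libraries, KO 1 and KO 3 correlated best with a WT library of another number. Whether the numbers mark pairs cannot be told from these values, and the main fit did not take them as pairs. With the library number as a replicate block 10 genes and no member were called, Bak1 having a log2 fold change of -0.48 and an unadjusted p of 0.0247. Apaf1 stayed positive throughout, from 0.26 to 0.46, with an unadjusted p under 0.05 in 18 of 19 alternatives and adjusted p of 0.428 to 0.931. Small fold changes turned sign. Bcl2l1 had -0.13 without WT 1 and WT 4 and -0.083 to 0.15 with 1 library left out. Bid had 0.0060 with library totals only and -0.28 to 0.078 with 1 left out. Bad had 0.016 with limma-voom, 0.10 with age and -0.14 to 0.060 with 1 left out. Xiap had 0.019 with library totals only, 0.032 without WT 1 and WT 4 and -0.11 to 0.051 with 1 left out. The cause was not tested. Tnfrsf10b was called in 5 of 19 alternatives, with adjusted p of 0.000482 to 0.349. With the longest transcript as length, the mean CPM per kilobase over all libraries was 40.1 for Bcl2l1 (22.4 with the union of exons), 14.1 for Bcl2 (11.0), 14.5 for Xiap (10.4), 15.2 for Bcl2l11 (9.56), 10.6 for Bad (6.34), 8.73 for Bid (5.94) and 5.42 for Apaf1 (3.95), since that length is shorter. Bak1 hardly changed, at 13.4 (13.3), and fell from rank 3 to rank 6. The 95% intervals give the fold changes compatible with these samples, and true changes within an interval cannot be told apart.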
